A study of Homo sapiens with 12 samples.

Results

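Described here are 42 human genes that encode heat shock proteins, their co-chaperones and chaperonins, across 4 groups of an acute myeloid leukaemia cell line. They were taken by symbol from a list of the chaperone families, with earlier results of these data known. All 42 were found among the 78930 genes of the count table, and all 42 were among the 24064 genes kept after genes with low counts were removed. By role they form 9 families: 5 HSP70 genes, 6 genes of the HSP110 and nucleotide exchange group, 8 J-domain genes, 2 HSP90 genes, 7 HSP90 co-chaperones, 8 subunits of the cytosolic chaperonin CCT, 2 genes of the mitochondrial chaperonin, 2 heat shock factors, and the pair HSPB1 and SERPINH1.

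RNA was sequenced from OCI-AML3 degron cells. OCI-AML3 carries NPM1c, the mutant of nucleophosmin that lies in the cytoplasm, and in the degron line this protein bears a tag through which the small molecule dTAG-13 sends it for destruction. In the groups dTAG FL-NPM1c, dTAG C-body null and dTAG mCherry, cells had received lentivirus for full-length NPM1c with mCherry, for a construct named C-body null with mCherry, or for mCherry alone, and were given 500 nM dTAG-13 at 48 hours. The control, NTC DMSO, has no construct in its genotype label, and its titles give DMSO, the solvent of the degrader, whereas its treatment label gives dTAG. As labelled, a comparison with NTC DMSO changes construct and degrader together, and their parts cannot be told apart. The protocol sorted mCherry-positive cells 24 hours after the degrader was added, without naming a promoter for the constructs or the meaning of NTC, and describes 1 degron line, although the cell line labels carry running numbers. Each group had 3 libraries.

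Heat shock proteins bind unfolded or partly folded proteins and release them in cycles driven by ATP. HSP70 proteins receive clients from J-domain proteins, release them with the help of nucleotide exchange factors, and pass some of them to HSP90, where a set of co-chaperones steers folding of kinases and steroid receptors. Chaperonins are closed barrels in which actin, tubulin and many mitochondrial proteins fold. Many of these genes are switched on by heat shock factor HSF1, and leukaemia cells are known for high chaperone levels.

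Gene counts per library ranged from 30519165 to 59925564. Whether the 3 libraries of a group were grown apart is not in the labels; if not, the p-values reflect technical spread alone. NPM1 itself averaged 1651 ± 38.9 CPM (counts per 1000000 of the scaled library total) in dTAG FL-NPM1c, 1922 ± 21.7 in dTAG C-body null, 1252 ± 171 in dTAG mCherry and 1429.6 ± 117 in NTC DMSO (SD, n = 3 each), and its transcript does not measure degradation of the protein. Among myeloid markers, LYZ, CEBPA and SPI1 were present in every group, while KIT was at 0 and CD34 and MPO were low in all. The summed level of 10 monocyte and macrophage markers was 199.6 to 321.5 CPM in dTAG FL-NPM1c, 539.3 to 603.7 in dTAG C-body null, 493.7 to 554.6 in dTAG mCherry and 50.6 to 53.2 in NTC DMSO. Of the 9 that could be tested, 7 were higher and 1 lower in dTAG FL-NPM1c, and 9 were higher in dTAG C-body null and in dTAG mCherry, than in NTC DMSO; the tenth, MRC1, was at or near 0. CD3D, CD3E and CD2 of T cells, HBB of erythroid cells and EPCAM of epithelium were at 0 in all groups. On the same lists, NKG7 of T and NK cells averaged between 0.956 and 1.084 CPM in each group. PPBP, a megakaryocyte marker, averaged 2.335 CPM in dTAG FL-NPM1c, 0.656 in dTAG C-body null, 0.859 in dTAG mCherry and 0.109 in NTC DMSO. PPBP was called higher in each treated group than in NTC DMSO. Libraries also differed in how their counts leaned to GC-rich or GC-poor genes. The median log2 deviation of the GC-rich less the GC-poor tertile of genes was 0.302, 0.281 and 0.129 in dTAG FL-NPM1c replicates 1, 2 and 3, -0.032, -0.015 and 0.227 in dTAG C-body null, -0.139, 0.163 and -0.475 in dTAG mCherry, and -0.263, -0.303 and 0.158 in NTC DMSO. In dTAG C-body null and in NTC DMSO replicate 3 lay above the other 2 libraries, the dTAG mCherry libraries were spread from -0.475 to 0.163, and dTAG mCherry replicate 3 was the most GC-poor of the 12.

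The chaperone genes took a smaller part of all counts in each dTAG-13-treated group than in NTC DMSO. Their share was 1.96% ± 0.0364 in dTAG FL-NPM1c, 1.97% ± 0.0429 in dTAG C-body null, 1.96% ± 0.122 in dTAG mCherry and 2.31% ± 0.0896 in NTC DMSO (SD, n = 3 each). The libraries of the treated groups lay between 1.82% and 2.04%, below all 3 libraries of NTC DMSO, which lay between 2.21% and 2.37%. In bulk RNA, fewer cells that express a gene and less of its RNA per cell cannot be told apart.

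**Figure D1:**
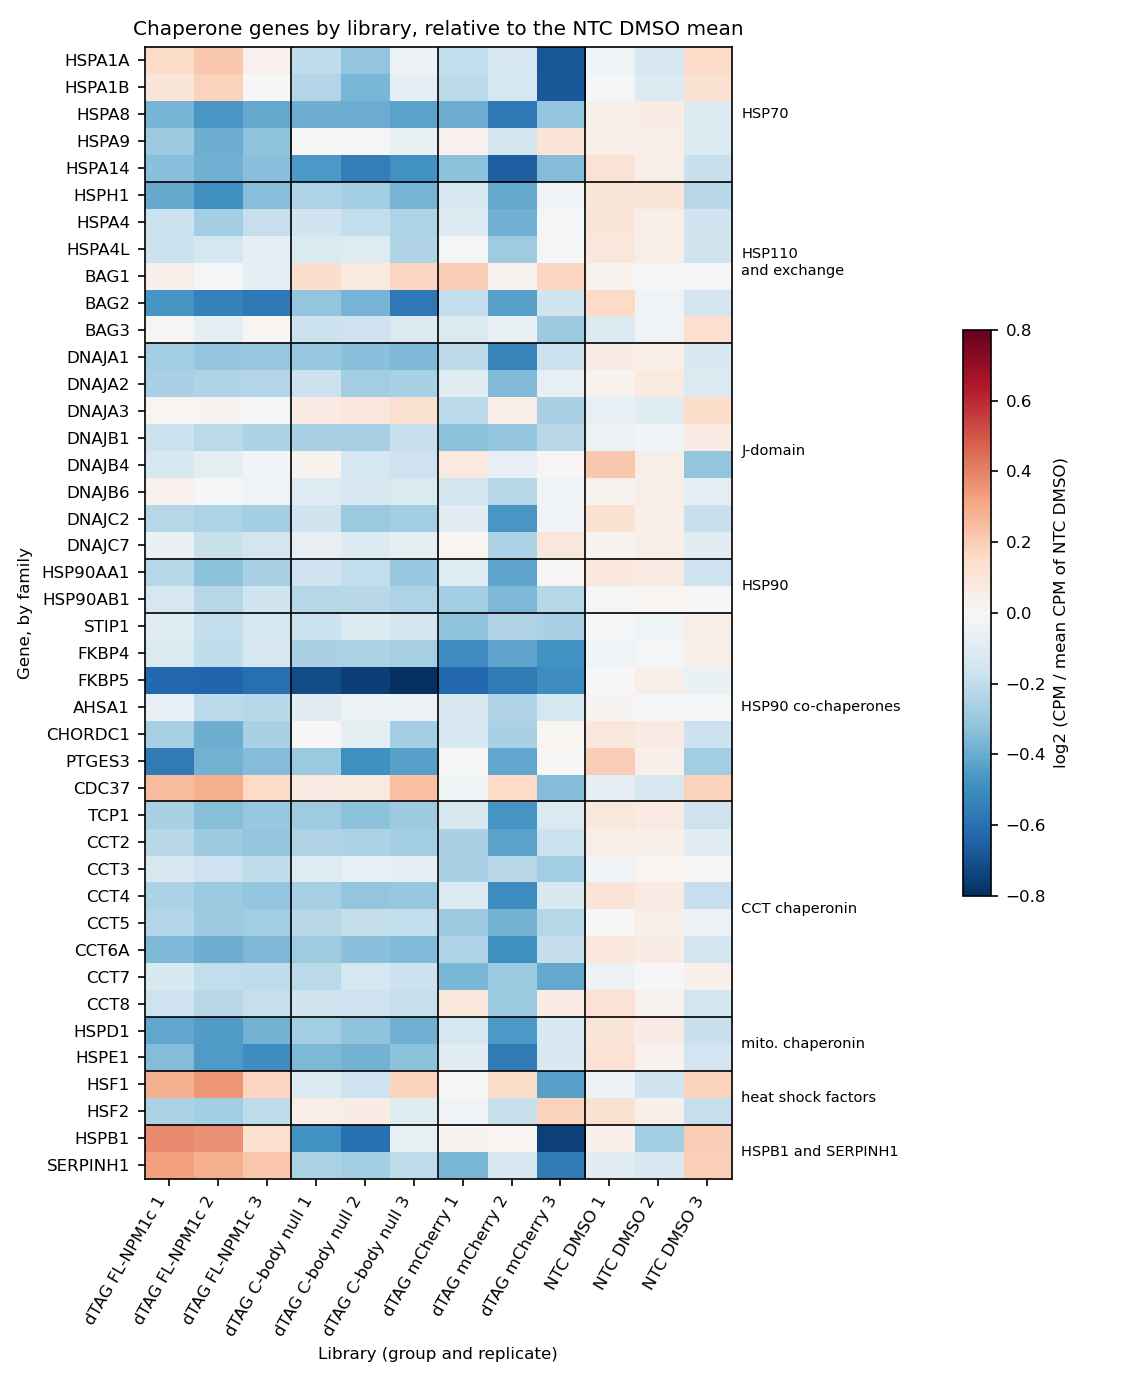
Level of the 42 chaperone genes in each of the 12 libraries, as log2 of the CPM over the mean CPM of NTC DMSO; columns are libraries by group, rows are genes by family, and black lines part groups and families. Blue (below the NTC DMSO mean) fills most rows of the 9 dTAG-13-treated libraries, with FKBP5 the darkest, while SERPINH1, HSPB1, HSF1 and CDC37 are red in dTAG FL-NPM1c.

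Test results for single genes came from a quasi-likelihood fit in edgeR over all 12 libraries, with p-values adjusted over the 24064 genes and called under 0.05. Against NTC DMSO, dTAG mCherry called 14 of the 42 chaperone genes lower (33.3%) and 0 higher, when 9.69% of all tested genes were called lower and 12.9% higher. The median log2 fold change of the 42 was -0.21, against -0.002 over all tested genes and -0.069 over the 9754 genes at least as abundant as the lowest of the 42, and 39 of 42 values were negative. In either direction 22.6% of all genes were called. All 3 dTAG mCherry libraries were below all 3 NTC DMSO libraries for 17 chaperone genes and above them for 0, against 14.3% and 17.8% of all tested genes. dTAG FL-NPM1c called 20 lower than NTC DMSO (47.6%) and 0 higher, when 13.3% of all tested genes were called lower and 14.6% higher, 27.9% in all, with a median of -0.21 against 0.023 over all genes and -0.072 over those 9754. Its libraries were all below NTC DMSO for 29 chaperone genes and all above for 1, against 20.3% and 23.2% of all tested genes. dTAG C-body null called 18 lower (42.9%) and 0 higher, when 12.4% of all tested genes were called lower and 14.1% higher, 26.6% in all, with a median of -0.22 against -0.001 over all genes and -0.056 over those 9754. Its libraries were all below NTC DMSO for 27 chaperone genes and all above for 1, against 19.3% and 21.1% of all tested genes. These 3 comparisons share the NTC DMSO libraries, so their values stand side by side and do not support one another. DESeq2, the other tool run, also called 0 chaperone genes higher in each of the 3, and at an unadjusted edgeR p under 0.05 there were 1, 0 and 0 higher in dTAG FL-NPM1c, dTAG C-body null and dTAG mCherry. For 15 of the 42 genes (35.7%), all 9 dTAG-13-treated libraries lay below all 3 NTC DMSO libraries, which held for 7.49% of all tested genes.

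Some of these counts rest on single libraries. With the 2 groups fitted alone, dTAG mCherry called 5 chaperone genes lower than NTC DMSO in place of 14, when 5.06% of all genes were called lower in that fit. The count of 20 for dTAG FL-NPM1c was 9 without NTC DMSO replicate 1, 12 without NTC DMSO replicate 2 and 11 without dTAG FL-NPM1c replicate 2, when 7.41%, 8.59% and 7.95% of all genes were called lower. For dTAG C-body null the count of 18 was 8 without NTC DMSO replicate 1, 5 without NTC DMSO replicate 2, and 11, 8 and 8 without dTAG C-body null replicates 1, 2 and 3. All genes called lower in those 5 fits were 8.24%, 8.43%, 9.2%, 9.18% and 8.56%. Over all single libraries left out, the medians of the 42 kept within -0.25 to -0.18, -0.27 to -0.18 and -0.23 to -0.20 for dTAG mCherry, dTAG FL-NPM1c and dTAG C-body null against NTC DMSO.

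Between dTAG-13-treated groups fewer chaperone genes were called. dTAG FL-NPM1c called 4 higher than dTAG mCherry (HSPA1A, HSPA1B, FKBP4 and SERPINH1) and 1 lower (HSPA9), when 7.58% of all tested genes were called higher and 7.95% lower; 5 of 42 is 11.9%, against 15.5% in either direction. Libraries did not overlap for 11 higher and 4 lower chaperone genes, against 16.4% and 16.0% of all tested genes. dTAG FL-NPM1c called 2 higher than dTAG C-body null (HSPB1 and SERPINH1) and 1 lower (HSPA9), when 4.82% of all tested genes were called higher and 4.86% lower; 3 of 42 is 7.14%, against 9.68% in either direction. Libraries did not overlap for 9 higher and 7 lower chaperone genes, against 18.1% and 17.1% of all tested genes. dTAG C-body null called 0 of 42 against dTAG mCherry by edgeR, when 0.216% of all tested genes were called higher and 0.378% lower (0.594% in all); 6 had an unadjusted p under 0.05, and DESeq2 called CCT3 and FKBP4 higher. Libraries did not overlap for 7 higher and 1 lower chaperone genes, against 7.36% and 7.6% of all tested genes. The medians of the 42 were -0.02, -0.01 and -0.01 in these 3 comparisons. dTAG mCherry replicate 2 weighed on the comparisons with dTAG mCherry: without it, dTAG FL-NPM1c called 9 higher and 10 lower, and dTAG C-body null called 2 higher and 1 lower. Calls over all genes grew as well in that fit, to 15.1% higher and 13.3% lower in dTAG FL-NPM1c and to 3.16% higher and 2.64% lower in dTAG C-body null.

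**Figure D2:**
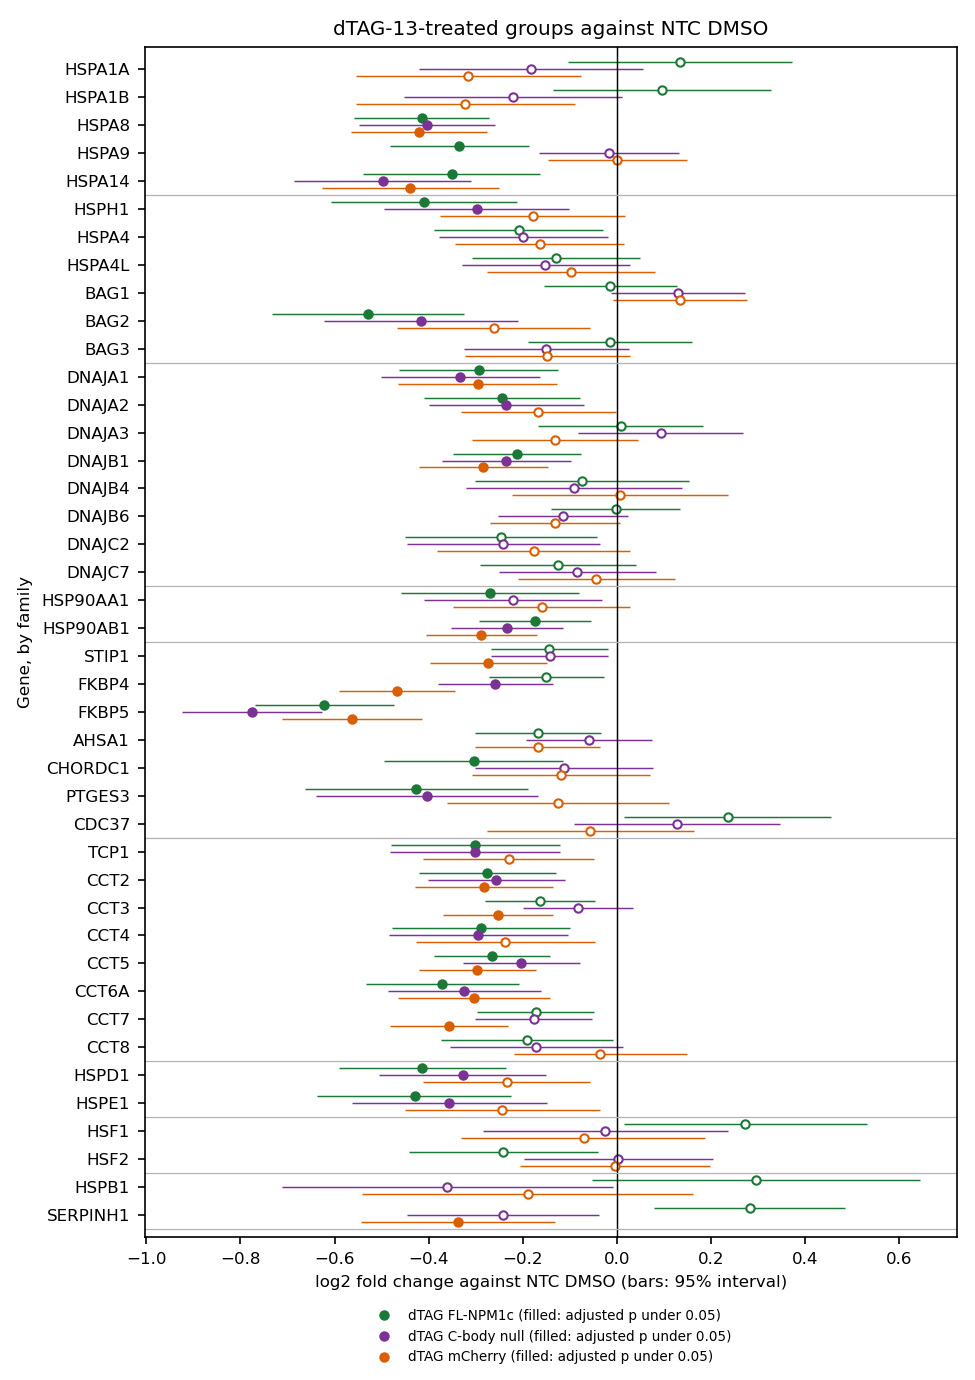
Log2 fold change of each of the 42 chaperone genes in dTAG FL-NPM1c (green), dTAG C-body null (purple) and dTAG mCherry (orange) against NTC DMSO, with bars for the 95% interval and filled points where the adjusted p was under 0.05. Most points lie left of 0, down to -0.78 for FKBP5 in dTAG C-body null, and no filled point lies to the right of 0.

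Levels within the family spanned more than 2 orders of magnitude. Compared per kilobase of union exons over the 12 libraries, HSP90AB1 (892 CPM per kb), HSPA8 (798), HSP90AA1 (559.9), HSPD1 (315) and CCT5 (188) were the highest. DNAJB4 (3.67), FKBP5 (3.55) and BAG2 (3.07) were the lowest. Dividing by the longest transcript instead placed HSPA8 first (1572 CPM per kb), ahead of HSP90AB1 (994) and HSP90AA1 (837), so the order of these 3 depends on the length used. In NTC DMSO, HSP90AB1 averaged 1003 and HSPA8 981.8 CPM per kb of union exons.

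Promoters of the 42 genes were searched for the heat shock element, the inverted repeats of GAA to which heat shock factors bind. The element was spelled as 3 units, GAANNTTCNNGAA or its reverse complement TTCNNGAANNTTC, in the 300 bases from 250 before to 50 after each start (RefSeq, GRCh38.p14), which were given for 38 members. It stood in the windows of 8 of the 38 (21.1%), against 166 of 27305 genes (0.61%). A 2-unit form, GAANNTTC or TTCNNGAA, stood in 20 of the 38 (52.6%) against 16.2% of genes, and each 3-unit match holds a 2-unit match. The 8 genes were HSPA8, DNAJA1, DNAJB6, HSP90AA1, HSP90AB1, CHORDC1, HSPD1 and SERPINH1. HSPA8 and both HSP90 genes are also the 3 highest of the family. A match is a description of the sequence and says nothing of binding here. Other spellings of the element and bases outside the windows were not searched, so a missing match does not show that a gene lacks it.

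The stretches that hold the element are shown for 7 of the 8 genes, since they include members that fell against NTC DMSO and SERPINH1, which rose in dTAG FL-NPM1c over the other 2 treated groups; in DNAJA1 the match lies within the 50 bases after the start. Capitals mark the 3-unit matches, adjoining matches in CHORDC1 and HSPD1 share bases, and each sequence is read 5′ to 3′ on the strand of its gene.
HSPA8, chr11:123062167-123062378, minus strand: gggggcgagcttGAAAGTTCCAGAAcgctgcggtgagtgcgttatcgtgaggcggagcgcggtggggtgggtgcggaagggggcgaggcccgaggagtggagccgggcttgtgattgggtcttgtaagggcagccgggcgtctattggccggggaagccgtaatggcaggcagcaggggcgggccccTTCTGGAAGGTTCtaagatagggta
HSP90AA1, chr14:102087108-102087144, minus strand: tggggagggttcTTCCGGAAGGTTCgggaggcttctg
HSP90AB1, chr6:44247766-44247855, plus strand: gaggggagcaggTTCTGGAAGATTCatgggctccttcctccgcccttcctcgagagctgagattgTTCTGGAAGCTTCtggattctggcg
HSPD1, chr2:197500056-197500090, minus strand: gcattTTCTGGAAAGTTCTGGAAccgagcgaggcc
DNAJB6, chr7:157336861-157336897, plus strand: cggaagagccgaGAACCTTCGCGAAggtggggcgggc
CHORDC1, chr11:90223075-90223121, minus strand: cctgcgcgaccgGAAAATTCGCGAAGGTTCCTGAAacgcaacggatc
SERPINH1, chr11:75562165-75562201, plus strand: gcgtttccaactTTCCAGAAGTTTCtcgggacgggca
HSPA8 and HSP90AB1 carry a pair of separate elements, HSPD1 a pair that overlaps and CHORDC1 a chain of 3. The outermost element base lay between 60 bases (CHORDC1) and 245 bases (HSPD1) before the start. In dTAG mCherry against NTC DMSO, the 8 genes with a 3-unit element had a median log2 fold change of -0.26 with 4 called lower. The 12 with a 2-unit element only had a median of -0.25 with 3 called lower, and the 18 with neither had a median of -0.17 with 4 called lower. The ranges overlapped, from -0.42 to -0.12, from -0.32 to 0.01 and from -0.56 to 0.13. Against NTC DMSO in dTAG FL-NPM1c, 6 of the 8, 6 of the 12 and 6 of the 18 were called lower, with medians of -0.28, -0.18 and -0.20, and in dTAG C-body null 4, 5 and 6, with medians of -0.24, -0.23 and -0.17. The shares of all genes called lower were 13.3% for dTAG FL-NPM1c, 12.4% for dTAG C-body null and 9.69% for dTAG mCherry. FKBP5, at the low end of the dTAG mCherry values without an element, had neither form in its windows.

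Of the 5 HSP70 genes, HSPA8 and HSPA14 fell against NTC DMSO in all 3 treated groups, HSPA9 fell in dTAG FL-NPM1c, and the stress-inducible pair HSPA1A and HSPA1B was not called. HSPA8, the constitutive cytosolic HSP70, lies on chromosome 11 (123057489 to 123063230, minus strand, GRCh38; ENSG00000109971). It had 3684, 3441 and 3585 CPM in dTAG FL-NPM1c libraries, 3634, 3618 and 3539 in dTAG C-body null, 3627, 3208 and 3829.8 in dTAG mCherry, and 4923, 4954 and 4405 in NTC DMSO. Every treated library was below every NTC DMSO library, and the 3 treated groups overlapped. The log2 fold change (± SE) against NTC DMSO was -0.42 ± 0.07, adjusted p = 0.00063 in dTAG FL-NPM1c, -0.40 ± 0.07, adjusted p = 0.00057 in dTAG C-body null and -0.42 ± 0.07, adjusted p = 0.0005 in dTAG mCherry. Between dTAG FL-NPM1c and dTAG mCherry HSPA8 differed by 0.01 ± 0.07 (95% interval -0.14 to 0.15, from the SE on a normal scale here and below).

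HSPA14 encodes an HSP70 that works at the ribosome with the J-domain protein DNAJC2. Exons of HSPA14 overlap another gene entry of the same name on the same strand and CDNF on the opposite one. A part of its counts is therefore uncertain. It had 55.6, 53.8 and 55.5 CPM in dTAG FL-NPM1c libraries, 50.96, 47.9 and 50.1 in dTAG C-body null, 55.9, 44.3 and 55.1 in dTAG mCherry, and 75.9, 72.4 and 62.02 in NTC DMSO. Its treated libraries also lay below those of NTC DMSO without overlap, and the change against NTC DMSO was -0.35 ± 0.10, adjusted p = 0.012 in dTAG FL-NPM1c, -0.50 ± 0.10, adjusted p = 0.00098 in dTAG C-body null and -0.44 ± 0.10, adjusted p = 0.0033 in dTAG mCherry. The call in dTAG FL-NPM1c was lost without NTC DMSO replicate 1 or dTAG FL-NPM1c replicate 2. Its partner DNAJC2 had lower values too but was not called (-0.25, -0.24 and -0.18; adjusted p = 0.088, 0.1 and 0.25).

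HSPA9, the HSP70 of the mitochondrial matrix (mortalin), was lower in dTAG FL-NPM1c than in each of the other groups. Its gene is on chromosome 5 (138553756 to 138575724, minus strand; ENSG00000113013). HSPA9 had 539, 504 and 528 CPM in dTAG FL-NPM1c libraries, 662, 662 and 634 in dTAG C-body null, 678, 596 and 709 in dTAG mCherry, and 686, 683 and 612 in NTC DMSO. All 3 dTAG FL-NPM1c libraries were below the other 9, which overlapped one another. HSPA9 fell in dTAG FL-NPM1c against dTAG mCherry (-0.34 ± 0.08, adjusted p = 0.0082), dTAG C-body null (-0.32 ± 0.08, adjusted p = 0.012) and NTC DMSO (-0.34 ± 0.08, adjusted p = 0.0039). The call against dTAG C-body null was lost without dTAG C-body null replicate 1 or 2 or dTAG FL-NPM1c replicate 2. With an offset for GC content fitted per library, an alternative added after the data were seen, HSPA9 was still called in dTAG FL-NPM1c, at -0.22 against dTAG mCherry (adjusted p = 0.0019), -0.27 against dTAG C-body null (adjusted p = 0.00031) and -0.19 against NTC DMSO (adjusted p = 0.0028). Against NTC DMSO, HSPA9 was not called in dTAG C-body null (-0.02 ± 0.08, 95% interval -0.17 to 0.13) or in dTAG mCherry (0.00 ± 0.08, 95% interval -0.15 to 0.15).

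HSPA1A and HSPA1B encode near-identical stress-inducible HSP70 proteins and lie side by side on chromosome 6 (31815464 to 31817946 and 31827735 to 31830255, plus strand). They share 71.3% and 71.4% of the 50-base windows of their transcripts, so how reads were divided between them is uncertain. HSPA1A had 152, 160.03 and 141 CPM in dTAG FL-NPM1c libraries, 119.8, 111 and 134 in dTAG C-body null, 120.3, 126 and 85.8 in dTAG mCherry, and 134, 126 and 153 in NTC DMSO. HSPA1B had 140.3, 149 and 131 CPM in dTAG FL-NPM1c libraries, 112, 102 and 125 in dTAG C-body null, 114, 119 and 82.1 in dTAG mCherry, and 129.9, 122 and 143 in NTC DMSO. In both genes the dTAG FL-NPM1c libraries were all above those of dTAG mCherry and of dTAG C-body null, overlapped NTC DMSO, and dTAG mCherry replicate 3 was the lowest of the 12. dTAG FL-NPM1c rose over dTAG mCherry by 0.45 ± 0.12, adjusted p = 0.022 for HSPA1A and by 0.42 ± 0.12, adjusted p = 0.027 for HSPA1B, and by 0.43 for the sum of both. Both calls were lost without dTAG FL-NPM1c replicate 1 or 2 or without dTAG mCherry replicate 3, when the value for HSPA1A ranged down to 0.27 (adjusted p up to 0.10). Both transcripts are GC-rich (59.7% and 58.7%), and with the GC offset the differences were 0.24 (adjusted p = 0.0063) and 0.22 (adjusted p = 0.017). HSPA1A was not called against NTC DMSO in dTAG FL-NPM1c (0.13 ± 0.12, adjusted p = 0.44), dTAG C-body null (-0.18 ± 0.12, adjusted p = 0.3) or dTAG mCherry (-0.32 ± 0.12, adjusted p = 0.074), nor was HSPA1B (adjusted p = 0.58, 0.19 and 0.061). With the GC offset HSPA1A was called lower than NTC DMSO in dTAG C-body null (-0.23, adjusted p = 0.0039) and in dTAG mCherry (-0.27, adjusted p = 0.0011), and higher in dTAG FL-NPM1c than in dTAG C-body null (0.20, adjusted p = 0.021).

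**Figure D3:**
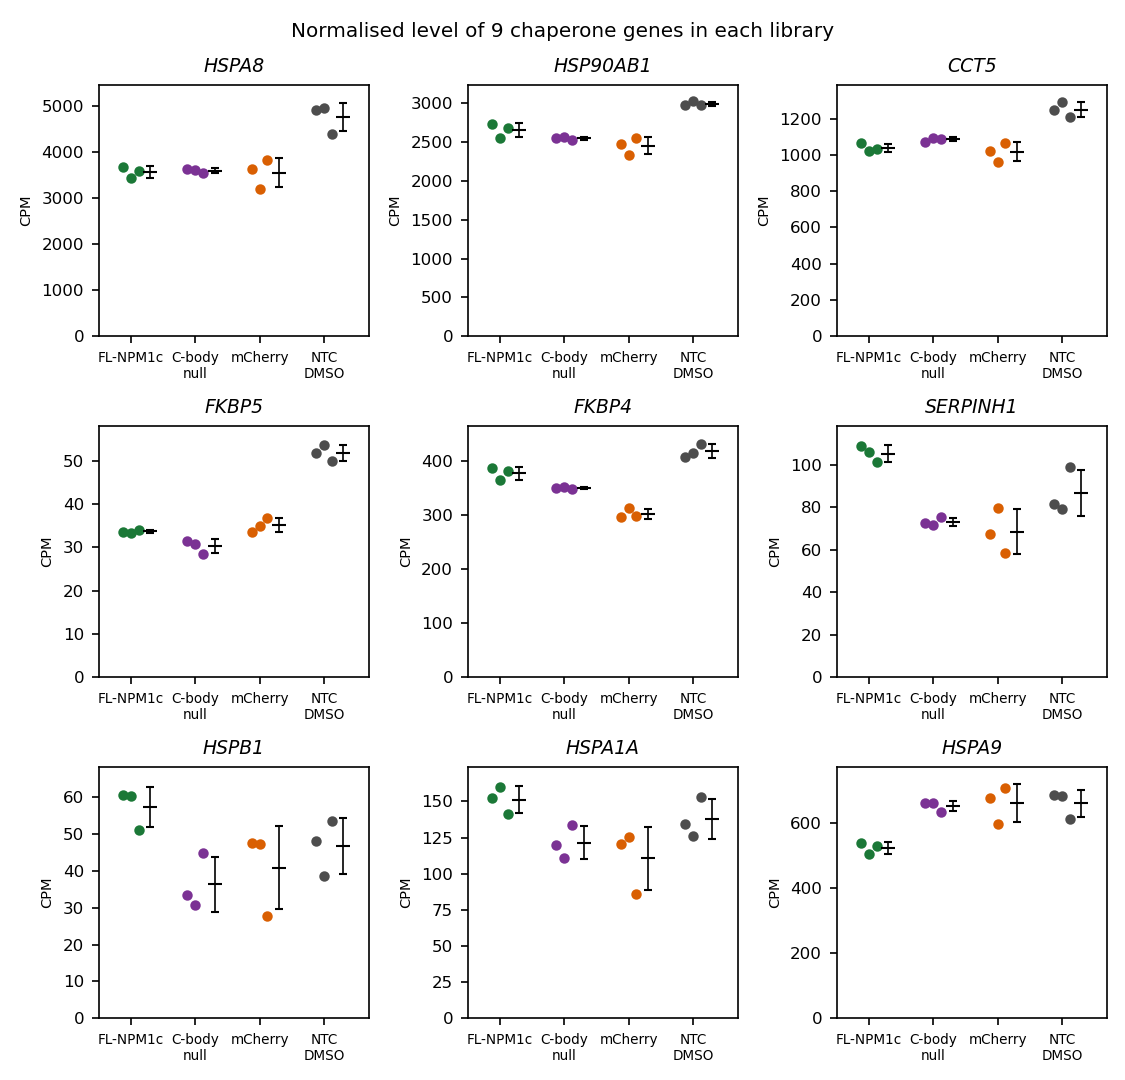
CPM of 9 chaperone genes in each library; points are the 3 libraries of each group, and the bar beside them is the mean with its SD. HSPA8, HSP90AB1, CCT5, FKBP5 and FKBP4 are highest in NTC DMSO, SERPINH1, HSPB1 and HSPA1A are highest on average in dTAG FL-NPM1c, and HSPA9 is lowest in dTAG FL-NPM1c.

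The HSP110 proteins HSPH1, HSPA4 and HSPA4L and the BAG proteins help HSP70 to exchange nucleotide, and of these 6 genes HSPH1 and BAG2 were called. HSPH1, a large chaperone induced by heat, had 344, 324 and 359 CPM in dTAG FL-NPM1c libraries, 383, 376 and 352 in dTAG C-body null, 417, 343 and 446 in dTAG mCherry, and 487, 487 and 391 in NTC DMSO. Its dTAG FL-NPM1c and dTAG C-body null libraries lay below all of NTC DMSO, whereas dTAG mCherry overlapped it. HSPH1 fell against NTC DMSO in dTAG FL-NPM1c (-0.41 ± 0.10, adjusted p = 0.0065) and dTAG C-body null (-0.30 ± 0.10, adjusted p = 0.038), and was not called in dTAG mCherry (-0.18 ± 0.10, adjusted p = 0.22). The dTAG C-body null call was lost without any dTAG C-body null library, NTC DMSO replicate 1 or 2, dTAG FL-NPM1c replicate 1 or dTAG mCherry replicate 1.

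BAG2, which slows ubiquitination of HSP70 clients, had 17.97, 17.1 and 16.8 CPM in dTAG FL-NPM1c libraries, 20.1, 19.3 and 16.8 in dTAG C-body null, 21.7, 18.4 and 22.3 in dTAG mCherry, and 27.8, 24.5 and 22.5 in NTC DMSO. All treated libraries were below NTC DMSO. BAG2 fell in dTAG FL-NPM1c (-0.53 ± 0.10, adjusted p = 0.0015) and dTAG C-body null (-0.42 ± 0.11, adjusted p = 0.007), with -0.26 ± 0.11, adjusted p = 0.084 in dTAG mCherry. The dTAG C-body null call was lost without NTC DMSO replicate 1 or dTAG C-body null replicate 3, and with the GC offset the called values were -0.27 (adjusted p = 0.0066) and -0.23 (adjusted p = 0.016). In dTAG mCherry BAG2 was also called lower with the offset (-0.204, adjusted p = 0.029 in edgeR). The other 4 genes were not called in any comparison: HSPA4 and HSPA4L had negative values against NTC DMSO in all 3 treated groups (-0.21, -0.20 and -0.16 for HSPA4), while BAG1 had -0.01, 0.13 and 0.13. BAG3, a stress-inducible member that guides clients to autophagy, stayed between 21.9 and 29.4 CPM in all 12 libraries.

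J-domain proteins bring clients to HSP70 and stimulate its ATPase. DNAJA1, a general cytosolic member, had 350.1, 342 and 343 CPM in dTAG FL-NPM1c libraries, 343, 336 and 329 in dTAG C-body null, 365, 294 and 375 in dTAG mCherry, and 442, 438 and 388 in NTC DMSO. DNAJB1, the classic heat-inducible HSP40, had 94.6, 91.5 and 89.3 CPM in dTAG FL-NPM1c libraries, 88.8, 88.6 and 93.6 in dTAG C-body null, 84.8, 85.9 and 91.4 in dTAG mCherry, and 103, 105 and 112 in NTC DMSO. In both genes all 9 treated libraries were below all 3 of NTC DMSO. DNAJA1 fell, with -0.29 ± 0.09, adjusted p = 0.018 in dTAG FL-NPM1c, -0.33 ± 0.09, adjusted p = 0.0086 in dTAG C-body null and -0.30 ± 0.09, adjusted p = 0.02 in dTAG mCherry, and none of these calls held without NTC DMSO replicate 2. The call in dTAG FL-NPM1c was also lost with the GC offset (-0.12, adjusted p = 0.098). DNAJB1 fell too (-0.21 ± 0.07, adjusted p = 0.032 in dTAG FL-NPM1c, -0.24 ± 0.07, adjusted p = 0.019 in dTAG C-body null and -0.28 ± 0.07, adjusted p = 0.0073 in dTAG mCherry). The call in dTAG mCherry held with any single library left out, that in dTAG FL-NPM1c was lost without any one NTC DMSO library or its own replicate 2 or 3, and that in dTAG C-body null without NTC DMSO replicate 2 or 3 or its own replicate 1 or 2. Between dTAG FL-NPM1c and dTAG mCherry DNAJB1 differed by 0.07 ± 0.07 (95% interval -0.07 to 0.21).

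DNAJA2, a close relative of DNAJA1, averaged 86.9 ± 0.771, 87.5 ± 3.47, 91.7 ± 9.73 and 103 ± 7.03 CPM in dTAG FL-NPM1c, dTAG C-body null, dTAG mCherry and NTC DMSO (SD, n = 3 each). It was called lower than NTC DMSO in dTAG FL-NPM1c (adjusted p = 0.04) and dTAG C-body null (adjusted p = 0.049), and each call was lost without NTC DMSO replicate 1 or 2, among other libraries, and with the GC offset. In dTAG mCherry DNAJA2 was called lower with the offset (-0.132, adjusted p = 0.044 in edgeR). The other 5 J-domain genes were not called in any comparison. DNAJA3, which works in mitochondria, had the highest log2 fold change of the 42 in dTAG C-body null against dTAG mCherry, uncalled (0.23 ± 0.09, adjusted p = 0.35). DNAJB6, a suppressor of polyglutamine aggregation, averaged 194 ± 4.48, 179.9 ± 1.35, 178 ± 12.4 and 195 ± 8.99 CPM in dTAG FL-NPM1c, dTAG C-body null, dTAG mCherry and NTC DMSO (SD, n = 3 each).

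The HSP90 genes differed in how tightly their libraries agreed. HSP90AB1, the constitutive cytosolic HSP90, lies on chromosome 6 (44246166 to 44253888, plus strand; ENSG00000096384) and had 2723, 2552 and 2674 CPM in dTAG FL-NPM1c libraries, 2551, 2559 and 2519.8 in dTAG C-body null, 2469, 2331 and 2548 in dTAG mCherry, and 2973, 3019 and 2978 in NTC DMSO. The NTC DMSO libraries spanned only 2973 to 3019 CPM, and all 9 treated libraries were below them. HSP90AB1 fell in dTAG FL-NPM1c (-0.17 ± 0.06, adjusted p = 0.041), dTAG C-body null (-0.23 ± 0.06, adjusted p = 0.0085) and in dTAG mCherry (-0.29 ± 0.06, adjusted p = 0.0023). The first of these calls was lost without any single dTAG FL-NPM1c or NTC DMSO library, the second without NTC DMSO replicate 2 or dTAG C-body null replicate 3, and the call in dTAG mCherry held without any one library. HSP90AA1, the stress-inducible form, averaged 2720.2 ± 97.3, 2815 ± 143, 2936 ± 440.3 and 3281 ± 305 CPM in dTAG FL-NPM1c, dTAG C-body null, dTAG mCherry and NTC DMSO (SD, n = 3 each). Of the 3 changes against NTC DMSO, the one in dTAG FL-NPM1c was called (-0.27 ± 0.10, adjusted p = 0.046), and it was lost with the GC offset and without any single dTAG FL-NPM1c library or NTC DMSO replicate 1 or 2. The HSP90 genes share no 50-base window of their transcripts.

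Co-chaperones of HSP90 held the largest fall. FKBP5 encodes an immunophilin that restrains steroid receptors within the HSP90 complex, and lies on chromosome 6 (35573585 to 35728583, minus strand; ENSG00000096060). FKBP5 had 33.5, 33.4 and 34.1 CPM in dTAG FL-NPM1c libraries, 31.5, 30.8 and 28.5 in dTAG C-body null, 33.5, 35.02 and 36.8 in dTAG mCherry, and 51.9, 53.6 and 50.02 in NTC DMSO. Treated libraries ran from 28.5 to 36.8 CPM and NTC DMSO libraries from 50.02 to 53.6 CPM, a gap wider than either range. It fell in dTAG FL-NPM1c (-0.62 ± 0.08, adjusted p = 2.0e-05), dTAG C-body null (-0.78 ± 0.08, adjusted p = 9.5e-07) and in dTAG mCherry (-0.56 ± 0.08, adjusted p = 4.2e-05). dTAG C-body null was below dTAG mCherry in every library, without a call (-0.21 ± 0.08, adjusted p = 0.3).

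FKBP4, the immunophilin that favours steroid receptor activity, differed in pattern. It had 387, 364 and 382 CPM in dTAG FL-NPM1c libraries, 351, 352 and 348 in dTAG C-body null, 296, 313 and 299 in dTAG mCherry, and 409, 415 and 433 in NTC DMSO. The groups did not overlap, with NTC DMSO the highest, then dTAG FL-NPM1c, dTAG C-body null and dTAG mCherry. FKBP4 rose in dTAG FL-NPM1c over dTAG mCherry (0.32 ± 0.06, adjusted p = 0.0033). Against NTC DMSO it fell in dTAG C-body null (-0.26 ± 0.06, adjusted p = 0.0055) and in dTAG mCherry (-0.47 ± 0.06, adjusted p = 4.1e-05), and was not called in dTAG FL-NPM1c (-0.15 ± 0.06, adjusted p = 0.086). With the GC offset FKBP4 was called lower in dTAG FL-NPM1c than in NTC DMSO (-0.16, adjusted p = 0.0064 in edgeR). The difference of dTAG C-body null from dTAG mCherry was not called by edgeR (0.21 ± 0.06, adjusted p = 0.2), was called by DESeq2 at 0.23, and was called with the GC offset at 0.16 (adjusted p = 0.045).

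PTGES3 encodes p23, which closes the HSP90 clamp. It had 341, 388 and 396 CPM in dTAG FL-NPM1c libraries, 410.4, 359 and 373 in dTAG C-body null, 504, 378 and 503 in dTAG mCherry, and 578, 517 and 416 in NTC DMSO. dTAG mCherry and NTC DMSO overlapped, and each had 1 library well below its other 2 (replicate 2 in dTAG mCherry and replicate 3 in NTC DMSO). PTGES3 fell against NTC DMSO in dTAG FL-NPM1c (-0.43 ± 0.12, adjusted p = 0.015) and dTAG C-body null (-0.40 ± 0.12, adjusted p = 0.02), with -0.13 ± 0.12, adjusted p = 0.5 in dTAG mCherry, and both calls were lost without NTC DMSO replicate 1. STIP1, the adaptor between HSP70 and HSP90, was called lower than NTC DMSO in dTAG mCherry (-0.27 ± 0.06, adjusted p = 0.0049). The edgeR fit with the GC offset also called STIP1 lower in dTAG FL-NPM1c (-0.236, adjusted p = 0.0043) and dTAG C-body null (-0.192, adjusted p = 0.015). CHORDC1, a co-chaperone with zinc-binding domains, was called lower than NTC DMSO in dTAG FL-NPM1c (-0.30 ± 0.10, adjusted p = 0.027). The CHORDC1 call was lost with the GC offset and without NTC DMSO replicate 1 or 2 or dTAG FL-NPM1c replicate 1 or 2. AHSA1, which stimulates the HSP90 ATPase, and CDC37, which loads kinases, were not called in any comparison. CDC37 had 177 ± 8.34 CPM in dTAG FL-NPM1c, 164 ± 11.2 in dTAG C-body null, 144 ± 24.98 in dTAG mCherry and 150.01 ± 18.2 in NTC DMSO (SD, n = 3 each), and its transcript is among the GC-rich ones.

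All 8 subunits of CCT, the ring that folds actin and tubulin, had negative values against NTC DMSO in each treated group, with 5 called in each comparison. Family medians were -0.27 in dTAG FL-NPM1c, -0.23 in dTAG C-body null and -0.27 in dTAG mCherry. CCT5, on chromosome 5 (10249921 to 10266412, plus strand), had 1065, 1024 and 1032 CPM in dTAG FL-NPM1c libraries, 1073, 1096 and 1090.2 in dTAG C-body null, 1024, 962 and 1068 in dTAG mCherry, and 1248, 1293 and 1209.9 in NTC DMSO. CCT6A had 571, 559 and 571 CPM in dTAG FL-NPM1c libraries, 602, 581 and 574 in dTAG C-body null, 618, 523 and 642 in dTAG mCherry, and 776, 765 and 659.5 in NTC DMSO. In both, all treated libraries were below NTC DMSO. CCT5 fell (-0.27 ± 0.06, adjusted p = 0.0055 in dTAG FL-NPM1c, -0.20 ± 0.06, adjusted p = 0.025 in dTAG C-body null and -0.30 ± 0.06, adjusted p = 0.0026 in dTAG mCherry), as did CCT6A (-0.37 ± 0.08, adjusted p = 0.0036, -0.32 ± 0.08, adjusted p = 0.0076 and -0.30 ± 0.08, adjusted p = 0.014 in the same groups). The CCT5 call in dTAG C-body null was lost without any single dTAG C-body null library or NTC DMSO replicate 1 or 2, and the CCT6A calls in dTAG C-body null and dTAG mCherry were lost without NTC DMSO replicate 2.

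CCT7 showed its lowest level in dTAG mCherry. It had 548, 521 and 519 CPM in dTAG FL-NPM1c libraries, 514, 542 and 529 in dTAG C-body null, 462, 487 and 449.5 in dTAG mCherry, and 580.4, 596 and 615 in NTC DMSO, so that the dTAG mCherry libraries lay below those of dTAG FL-NPM1c and dTAG C-body null, and these below NTC DMSO. It fell in dTAG mCherry (-0.36 ± 0.06, adjusted p = 0.00062) and missed the threshold in dTAG FL-NPM1c (-0.17 ± 0.06, adjusted p = 0.052) and dTAG C-body null (-0.18 ± 0.06, adjusted p = 0.05). Both were called lower with the GC offset (-0.188, adjusted p = 0.0024 and -0.195, adjusted p = 0.0014 in edgeR). TCP1, the subunit that names the ring, had 401, 379.8 and 389 CPM in dTAG FL-NPM1c libraries, 395, 382 and 392 in dTAG C-body null, 439.95, 346 and 443 in dTAG mCherry, and 511, 502 and 427 in NTC DMSO. Here dTAG mCherry replicates 1 and 3 reached above NTC DMSO replicate 3. TCP1 was called in dTAG FL-NPM1c (-0.30 ± 0.09, adjusted p = 0.023) and dTAG C-body null (-0.30 ± 0.09, adjusted p = 0.023) but not in dTAG mCherry (-0.23 ± 0.09, adjusted p = 0.085). Both calls were lost without NTC DMSO replicate 1 or 2. The edgeR fit with the GC offset called TCP1 lower in dTAG mCherry as well (-0.205, adjusted p = 0.013). CCT2 was called in all 3 groups, CCT4 in dTAG FL-NPM1c and dTAG C-body null, CCT3 in dTAG mCherry alone (-0.25 ± 0.06, adjusted p = 0.0055) and CCT8 in none. CCT3 was called lower in dTAG FL-NPM1c too with the GC offset (-0.176, adjusted p = 0.0034 in edgeR). CCT2 lost its call in dTAG FL-NPM1c without NTC DMSO replicate 1, in dTAG mCherry without NTC DMSO replicate 2, and in dTAG C-body null without either of these or dTAG C-body null replicate 2 or 3. CCT4 lost both calls without NTC DMSO replicate 1 or 2 or any library of the treated group, and that in dTAG FL-NPM1c with the GC offset (adjusted p = 0.063). In dTAG mCherry CCT4 was called lower with the offset (-0.214, adjusted p = 0.018 in edgeR). Without the GC offset, differences of these subunits between treated groups were within -0.16 to 0.18, and edgeR called 0 of them. DESeq2 called CCT3 higher in dTAG C-body null than in dTAG mCherry, at 0.19. edgeR with the GC offset called CCT7 higher in dTAG FL-NPM1c than in dTAG mCherry (0.136, adjusted p = 0.03).

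HSPD1 and HSPE1 encode the barrel and the lid of the mitochondrial chaperonin and lie head to head on chromosome 2 (197486581 to 197516737, minus strand, and 197499994 to 197503457, plus strand). HSPD1 had 1179, 1155 and 1215 CPM in dTAG FL-NPM1c libraries, 1301, 1260.5 and 1205 in dTAG C-body null, 1428, 1145 and 1446 in dTAG mCherry, and 1688, 1644 and 1396 in NTC DMSO. HSPE1 had 258, 240.3 and 233 CPM in dTAG FL-NPM1c libraries, 256, 252 and 262 in dTAG C-body null, 309, 222 and 301 in dTAG mCherry, and 356, 334 and 295 in NTC DMSO. dTAG FL-NPM1c and dTAG C-body null lay below NTC DMSO without overlap in both genes, while dTAG mCherry replicates 1 and 3 overlapped it. Against NTC DMSO, HSPD1 fell in dTAG FL-NPM1c (-0.41 ± 0.09, adjusted p = 0.0031) and dTAG C-body null (-0.33 ± 0.09, adjusted p = 0.013), with -0.23 ± 0.09, adjusted p = 0.074 in dTAG mCherry. The edgeR fit with the GC offset called HSPD1 lower in dTAG mCherry too (-0.21, adjusted p = 0.0087). HSPE1 fell in dTAG FL-NPM1c (-0.43 ± 0.11, adjusted p = 0.0066) and dTAG C-body null (-0.36 ± 0.11, adjusted p = 0.019), with -0.24 ± 0.11, adjusted p = 0.11 in dTAG mCherry. In dTAG C-body null the HSPD1 call was lost without NTC DMSO replicate 1 or 2 or dTAG C-body null replicate 2 or 3, and the HSPE1 call without NTC DMSO replicate 1 or 2 or any dTAG C-body null library. Of the counts of HSPD1 and the pseudogenes named after it, the pseudogenes held 4.06%, and for HSPE1 the share was 1.79%. Exons of the pair overlap on opposite strands, and HSPE1 also overlaps the readthrough gene HSPE1-MOB4, so a part of their counts is uncertain.

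The heat shock factors were not called in any comparison of the edgeR fit described above, which had no GC offset. HSF1, the master regulator of the heat shock response, lies on chromosome 8 (144291591 to 144314722, plus strand) and had 81.8, 85.9 and 75.7 CPM in dTAG FL-NPM1c libraries, 62.3, 59.9 and 75.9 in dTAG C-body null, 67.4, 74.5 and 49.6 in dTAG mCherry, and 65.2, 60.1 and 76.2 in NTC DMSO. dTAG FL-NPM1c libraries were all above those of dTAG mCherry, and dTAG C-body null replicate 3 and NTC DMSO replicate 3 reached the range of dTAG FL-NPM1c. HSF1 differed by 0.34 ± 0.13, adjusted p = 0.087 between dTAG FL-NPM1c and dTAG mCherry. Its transcript is the most GC-rich of the 42 (64.7%), and with the GC offset the difference was 0.05 (adjusted p = 0.45). HSF2, a second factor, had 21.9, 21.7 and 22.7 CPM in dTAG FL-NPM1c libraries, 26.9, 27.2 and 24.4 in dTAG C-body null, 25.8, 23.1 and 29.5 in dTAG mCherry, and 28.4, 26.9 and 23.02 in NTC DMSO. All dTAG FL-NPM1c libraries were below those of the other 3 groups, with -0.24 ± 0.10, adjusted p = 0.13 against dTAG mCherry, -0.25 ± 0.10, adjusted p = 0.15 against dTAG C-body null and -0.24 ± 0.10, adjusted p = 0.09 against NTC DMSO. With the GC offset HSF2 was called lower in dTAG FL-NPM1c than in dTAG C-body null (-0.18, adjusted p = 0.023) and higher in dTAG C-body null than in NTC DMSO (0.15, adjusted p = 0.043).

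SERPINH1 was higher in dTAG FL-NPM1c than in dTAG mCherry and dTAG C-body null, and HSPB1 was higher than in dTAG C-body null. Neither was called over NTC DMSO in the edgeR fit described above, which had no GC offset. SERPINH1 encodes HSP47, a chaperone for collagen in the endoplasmic reticulum, and lies on chromosome 11 (75562056 to 75572783, plus strand; ENSG00000149257). SERPINH1 had 109, 106 and 101 CPM in dTAG FL-NPM1c libraries, 72.6, 71.7 and 75.2 in dTAG C-body null, 67.2, 79.5 and 58.6 in dTAG mCherry, and 81.7, 79.1 and 98.9 in NTC DMSO. All 3 dTAG FL-NPM1c libraries exceeded the other 9. It rose in dTAG FL-NPM1c over dTAG mCherry (0.62 ± 0.11, adjusted p = 0.001) and over dTAG C-body null (0.52 ± 0.10, adjusted p = 0.0035), and missed the threshold over NTC DMSO (0.28 ± 0.10, adjusted p = 0.054). With the GC offset the difference from dTAG mCherry was 0.46 (adjusted p = 4.5e-06), and that from NTC DMSO was called at 0.17 (adjusted p = 0.013). The difference from dTAG C-body null was called with the offset as well (0.46, adjusted p = 3.4e-06 in edgeR). In that fit SERPINH1 was called lower in dTAG C-body null than in NTC DMSO (-0.29, adjusted p = 0.00016). It fell in dTAG mCherry against NTC DMSO (-0.34 ± 0.11, adjusted p = 0.028), a call lost without NTC DMSO replicate 3 or dTAG mCherry replicate 1 or 3.

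HSPB1, the small heat shock protein HSP27, had 60.6, 60.3 and 51.2 CPM in dTAG FL-NPM1c libraries, 33.5, 30.8 and 44.9 in dTAG C-body null, 47.5, 47.3 and 27.8 in dTAG mCherry, and 48.01, 38.6 and 53.6 in NTC DMSO. dTAG FL-NPM1c lay above dTAG C-body null and dTAG mCherry without overlap and overlapped NTC DMSO, and within dTAG mCherry replicate 3 was far below the other 2. HSPB1 rose in dTAG FL-NPM1c over dTAG C-body null (0.66 ± 0.18, adjusted p = 0.028), a call lost without replicate 1 or 2 of either group. Over dTAG mCherry it was not called (0.49 ± 0.18, adjusted p = 0.076), and with the GC offset the difference was 0.21 (adjusted p = 0.11). The edgeR fit with the offset still called HSPB1 higher in dTAG FL-NPM1c than in dTAG C-body null (0.45, adjusted p = 0.0021). In that fit HSPB1 was also called lower in dTAG C-body null than in NTC DMSO (-0.384, adjusted p = 0.0033). Its transcript is 64.3% GC.

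The GC lean of the libraries moved with these differences. Of the 42 genes, 8 had transcripts over 55% GC (HSF1, HSPB1, CDC37, HSPA1A, HSPA1B, BAG3, SERPINH1 and STIP1), and all 8 had positive values in dTAG FL-NPM1c against dTAG mCherry. With the GC offset, the 5 chaperone genes called in that comparison were all called again in the same direction, and the count became 9 higher and 1 lower. In that fit 9.36% of all genes were called higher and 10.1% lower. Against NTC DMSO the offset kept 15 of 20 calls in dTAG FL-NPM1c, 17 of 18 in dTAG C-body null and 14 of 14 in dTAG mCherry, and gave 20, 24 and 21 chaperone genes lower with 2, 2 and 1 higher, when 13.1%, 14.5% and 14.0% of all genes were called lower and 18.3%, 19.7% and 19.2% higher. Of the called values 19 of 20, 15 of 18 and 14 of 14 lay closer to 0 with the offset: the median of the 20 called in dTAG FL-NPM1c was -0.19 with the offset and -0.32 without it, that of the 18 in dTAG C-body null -0.23 and -0.31, and that of the 14 in dTAG mCherry -0.28 and -0.30. In dTAG FL-NPM1c against NTC DMSO, HSPA14 was -0.20, HSPH1 -0.20, TCP1 -0.16 and CCT5 -0.14 with the offset, all still called. Members with no call before gained one with it: BAG1 was higher than NTC DMSO in dTAG C-body null (0.14) and dTAG mCherry (0.16), BAG3 lower in dTAG C-body null (-0.20), AHSA1 lower (-0.19) and DNAJB4 higher (0.26) in dTAG FL-NPM1c, and HSPA4L was higher in dTAG FL-NPM1c than in dTAG mCherry (0.16). The part of GC content in the remaining differences was not tested, nor was that of the monocyte marker levels, which differed between the same groups.

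**Figure D4:**
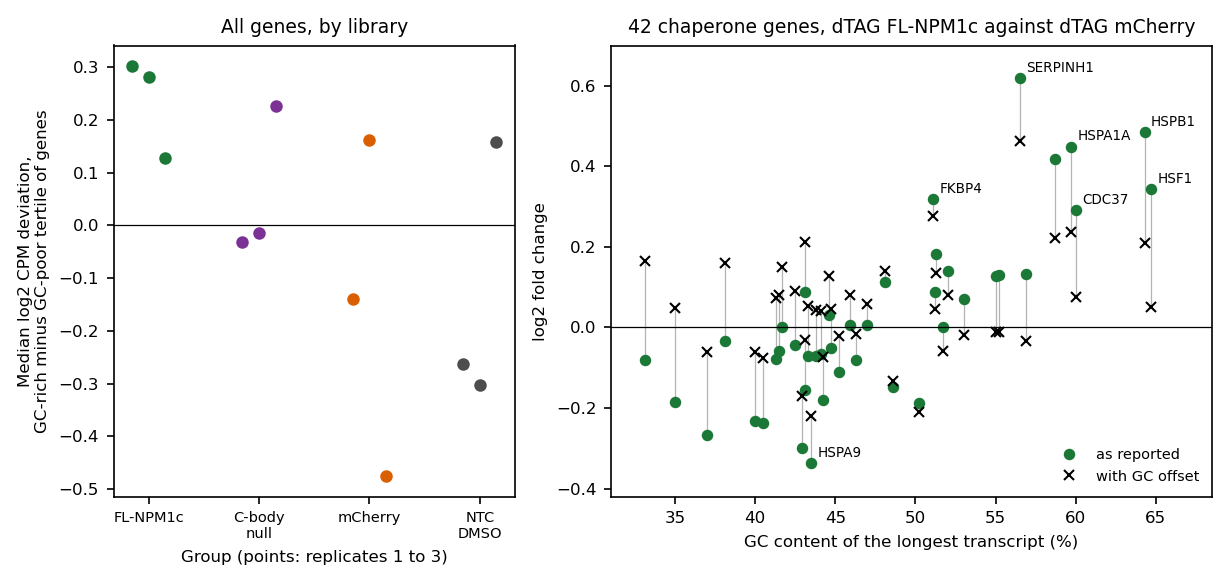
Left, median log2 CPM deviation of the GC-rich less the GC-poor tertile of genes in each library; right, log2 fold change of the 42 chaperone genes in dTAG FL-NPM1c against dTAG mCherry by GC content of the longest transcript, as reported (green points) and with the GC offset (crosses), joined by a line per gene. dTAG mCherry replicate 3 is the lowest library at -0.475, and SERPINH1, FKBP4, HSPA1A and HSPA9 stay away from 0 with the offset while HSF1 and CDC37 move close to it.

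Other genes of protein folding were taken from 6 lists and read only without the GC offset. The part of GC content in the values of these genes was not tested. Their counts against NTC DMSO stand beside shares of all genes of 13.3% lower and 14.6% higher for dTAG FL-NPM1c, 12.4% and 14.1% for dTAG C-body null, and 9.69% and 12.9% for dTAG mCherry. Of 15 further HSP90 co-chaperones, 5 were called lower in dTAG FL-NPM1c, 6 in dTAG C-body null and 5 in dTAG mCherry than in NTC DMSO, and 0 higher. Among them RPAP3, which assembles RNA polymerase with HSP90, fell (-0.51 ± 0.10, adjusted p = 0.0015 in dTAG FL-NPM1c, -0.47 ± 0.10, adjusted p = 0.0023 in dTAG C-body null and -0.31 ± 0.10, adjusted p = 0.033 in dTAG mCherry). In dTAG FL-NPM1c against dTAG mCherry, 5 of the 15 were higher and 0 lower, when 7.58% of all genes were called higher. Of 18 chaperones of the endoplasmic reticulum, 1 was called higher and 5 lower in dTAG FL-NPM1c than in NTC DMSO, 1 higher and 2 lower in dTAG C-body null, and 0 higher and 1 lower in dTAG mCherry. The lectin chaperone CALR was the one called in dTAG mCherry (-0.26 ± 0.07, adjusted p = 0.014), and it rose in dTAG FL-NPM1c over dTAG mCherry (0.36 ± 0.07, adjusted p = 0.004). HSP90B1, the HSP90 of that compartment, fell in the same comparison (-0.34 ± 0.09, adjusted p = 0.023).

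Of 13 genes of mitochondrial protein folding and quality control, 3 were lower and 1 higher in dTAG FL-NPM1c, 4 lower and 1 higher in dTAG C-body null, and 3 lower and 0 higher in dTAG mCherry than in NTC DMSO. GRPEL2, a nucleotide exchange factor of HSPA9, led each (-0.46, -0.54 and -0.43). TRAP1, the mitochondrial HSP90, rose in dTAG FL-NPM1c over dTAG mCherry (0.37 ± 0.10, adjusted p = 0.021). Of 23 other J-domain genes, 7, 4 and 1 were lower and 1, 1 and 2 higher in dTAG FL-NPM1c, dTAG C-body null and dTAG mCherry than in NTC DMSO. DNAJC9, a histone co-chaperone, fell in all 3 (-0.53, -0.58 and -0.48). DNAJC10, a reductase of the endoplasmic reticulum, was lower in dTAG FL-NPM1c than in dTAG mCherry (-0.74 ± 0.10, adjusted p = 0.0001) and than in dTAG C-body null (-0.56 ± 0.10, adjusted p = 0.0011). Of 10 prefoldin and CCT assembly genes, 3 were lower and 1 higher in dTAG FL-NPM1c, 3 lower and 1 higher in dTAG C-body null, and 2 lower and 1 higher in dTAG mCherry than in NTC DMSO, with CCT6B, a CCT subunit best known from testis, the one called higher (0.70, 0.60 and 0.98). CCT6B had few counts, with means of 1.85 CPM in dTAG mCherry and 0.93 CPM in NTC DMSO.

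Of 19 other heat shock genes, 15 passed the filter, and these moved in both directions against NTC DMSO: 6 higher and 4 lower in dTAG FL-NPM1c, 5 higher and 4 lower in dTAG C-body null, and 2 higher and 4 lower in dTAG mCherry. HMOX1, which degrades haem and answers to oxidative stress as well as heat, rose against NTC DMSO (3.595 ± 0.13, adjusted p = 2.3e-11 in dTAG FL-NPM1c, 3.41 ± 0.13, adjusted p = 3.2e-11 in dTAG C-body null and 2.52 ± 0.13, adjusted p = 1.0e-09 in dTAG mCherry). It was also higher in dTAG FL-NPM1c (1.08 ± 0.12, adjusted p = 1.6e-05) and dTAG C-body null (0.89 ± 0.12, adjusted p = 0.0017) than in dTAG mCherry. HSPA6, a strictly inducible HSP70, was called higher in dTAG FL-NPM1c than in dTAG mCherry (0.38 ± 0.12, adjusted p = 0.045). Of the genes on the 6 lists, HMOX1 was the only one called in dTAG C-body null against dTAG mCherry, and DNAJC10 the only one in dTAG FL-NPM1c against dTAG C-body null.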

How the data were processed

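Gene counts of 12 libraries were used as deposited by the authors: 1 table of whole-number counts per Ensembl gene, with 1 column per library, tied to its sample through the number in both names, which is an inference. Per the labels' protocols, libraries were made with a TruSeq Stranded mRNA kit from 500 ng of total RNA. Per the submitters' processing notes, the tools were STAR, featureCounts and DESeq2 with build hg38; the annotation, strand setting and handling of multi-mapping reads were not given in the sources used. Without strand, reads of overlapping genes cannot be told apart, and 21 of the 42 members overlap another gene's exons (8 on the same strand, 16 on the opposite one).

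The 42 members and the other lists were chosen with earlier results of these data known. Of 78936 lines, 6 broken ones of 2 genes were left out. Gene IDs were given symbols by an ID table (42177) or by GENCODE 29 (15568), and 21185 stayed without. edgeR 4.0.16 (R 4.3.3) filtered genes with low counts by group, which took 0.0795% of counts, scaled libraries by TMM (factors 0.975 to 1.02) and fitted a robust quasi-likelihood model with 4 groups over all 12 libraries. Genes with a Benjamini-Hochberg adjusted p under 0.05 over 24064 genes were called, and the standard error is the log2 fold change over the root of the F statistic. CPM is the count over the scaled library total, scaled to 1000000, and intervals cover counting and replicate error together. The fit was tested on simulated counts.

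Per-library values were given for at most 10 members with the largest called change in each comparison and for HSPA1A, HSPA1B, DNAJB1, HSPH1, HSPB1, HSF1 and HSF2; genes of other lists were named from the 3 with the largest called change in a list, and some are not reported here. Alternatives were DESeq2 1.42.0, other scalings and filters, each comparison fitted alone, a replicate block, single libraries left out and the sum of HSPA1A and HSPA1B. A loess offset for GC content per library, for the 85.7% of tested genes with a GC value, was added after the data were seen. Promoters came from RefSeq on GRCh38.p14, and gene positions from GENCODE 29 on GRCh38. Versions used besides were Python 3.11.15, pandas 2.3.3 and matplotlib 3.10.9.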

Additional observations from a re-analysis of the deposited data

Results flagged for a closer look

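HSPA9, HSPB1 and SERPINH1 differed between the dTAG FL-NPM1c and dTAG C-body null groups in a direct test of those groups, so that their effects against the shared dTAG mCherry libraries differed. The log2 difference of dTAG FL-NPM1c from dTAG C-body null was -0.32 for HSPA9, 0.66 for HSPB1 and 0.52 for SERPINH1 (adjusted p = 0.012, 0.028 and 0.0035 in edgeR, n = 3 each). In each of these 3 genes all dTAG FL-NPM1c libraries lay on one side of all dTAG C-body null libraries. Of all tested genes 9.68% were called in this comparison, against 7.14% of the 42. Libraries did not overlap for 18.1% of all tested genes in the higher direction and 17.1% in the lower. The HSPA9 call was lost without dTAG C-body null replicate 1 or 2 or dTAG FL-NPM1c replicate 2. The HSPB1 call was lost without replicate 1 or 2 of either group. With the GC offset HSPA9, HSPB1 and SERPINH1 were called again, at -0.27, 0.45 and 0.46 (adjusted p = 0.00031, 0.0021 and 3.4e-06 in edgeR).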

How the results depend on the processing

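Counts below are of the 42 chaperone genes unless all genes are named. Over 94 results for single genes and 2168 values under alternatives, 1855 kept direction and call, 198 lost and 60 gained a call, and 55, none of them called, changed sign; where no cause is named, the cause was not tested. For dTAG mCherry against NTC DMSO, 14 lower became 5 with the 2 groups fitted alone, 17 without dTAG mCherry replicate 2 and NTC DMSO replicate 3 together (a pair chosen with earlier results of these data known), and 11 to 19 without single libraries; 0 higher became 1 with the GC offset, 1 with the GC offset and the replicate block and 1 without that pair, and stayed 0 without single libraries. Genes called fell to 3196 at an adjusted p under 0.01 and to 3537 with 2 groups alone (4121 to 5889 without single libraries). For dTAG FL-NPM1c against dTAG mCherry, 4 higher became 2 at an adjusted p under 0.01, 7 with no filter, 9 with the GC offset, 8 without that pair and 2 to 9 without single libraries; 1 lower became 2 with no filter, 19 without that pair and 1 to 10 without single libraries, and the genes called were 1287 at an adjusted p under 0.01, 8336 without that pair and 1636 to 6849 without single libraries. The median of the 42 there was -0.114 without that pair and -0.082 to -0.003 without single libraries. For dTAG C-body null against dTAG mCherry, 0 higher became 2 with DESeq2, 1 with the GC offset, 6 without that pair and up to 2 without single libraries; 0 lower became 11 without that pair and up to 1 without single libraries. The 143 genes called became 71 at an adjusted p under 0.01, 368 with no filter, 86 with the replicate block, 61 with 2 groups alone, 362 with DESeq2, 556 with the GC offset, 420 with it and the block, 3993 without that pair, and 59 to 1396 without single libraries.

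For dTAG FL-NPM1c against dTAG C-body null, 2 higher became 1 at an adjusted p under 0.01, 5 with no filter, 1 with the replicate block, 5 with 2 groups alone, 6 with the GC offset, 6 with it and the block, and 1 to 4 without single libraries; 1 lower became 0 at an adjusted p under 0.01, 2 with 2 groups alone, 2 with the GC offset with or without the block, 3 without the pair above, and 0 to 1 without single libraries. Genes called were 1169 at an adjusted p under 0.01, 4416 with 2 groups alone, 4313 with the GC offset, 3912 with it and the block, 4103 without the pair, and 1365 to 3121 without single libraries. For dTAG FL-NPM1c against NTC DMSO, 0 higher became 3 with no filter, 1 with at least 50 counts in 3 libraries, 2 with 2 groups alone, 2 with the GC offset with or without the block, 3 without the pair and up to 3 without single libraries; 20 lower became 9 at an adjusted p under 0.01, 30 without the pair and 9 to 28 without single libraries, and genes called were 3647 at an adjusted p under 0.01, 9556 without the pair and 4171 to 7919 without single libraries. For dTAG C-body null against NTC DMSO, 0 higher became 2 with the GC offset, 1 with it and the block, and 2 without the pair; 18 lower became 8 at an adjusted p under 0.01, 25 without the pair and 5 to 23 without single libraries, and genes called were 3939 at an adjusted p under 0.01 and 4525 to 7371 without single libraries.

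Uncalled values that changed sign were few. HSF2 in dTAG mCherry against NTC DMSO was 0.013 with library totals, 0.015 with at least 50 counts, 0.003 with 2 groups alone, 0.019 without the pair, and 0.036 and 0.037 with the GC offset without and with the block. HSF2 in dTAG C-body null against NTC DMSO was -0.002 with RLE factors, -0.015 with no filter, 0.00 with 2 groups alone, -0.073 without the pair and -0.002 with DESeq2, and against dTAG mCherry -0.092 without the pair. HSF1 in dTAG C-body null was 0.083 against NTC DMSO without the pair. With the GC offset, without and with the block, DNAJB1 was -0.019 and -0.018 in dTAG FL-NPM1c and -0.026 and -0.026 in dTAG C-body null against dTAG mCherry, HSF1 was -0.03 and -0.031 in dTAG C-body null against dTAG mCherry, and in dTAG FL-NPM1c against NTC DMSO HSPA1A was -0.033 with both and HSPA1B -0.059 with both. Without single libraries, in dTAG mCherry against NTC DMSO HSF1 spanned -0.197 to 0.075, HSF2 -0.103 to 0.079 and HSPB1 -0.318 to 0.016. In dTAG C-body null against dTAG mCherry HSPA1A spanned -0.019 to 0.235, HSPA1B -0.045 to 0.201, HSF1 -0.103 to 0.173 and HSF2 -0.076 to 0.103; against NTC DMSO HSF1 spanned -0.137 to 0.076 and HSF2 -0.08 to 0.069. DNAJB1 in dTAG FL-NPM1c against dTAG C-body null spanned -0.025 to 0.042.

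No pairing by replicate number was seen in the libraries. Deviations from the group mean correlated at -0.701 to 0.433 over 18 same-numbered pairs and at -0.498 to 0.749 over the 36 other pairs. Of 12 libraries, 2 correlated best with their own number. The libraries also differed in GC lean, so this check cannot show whether same-numbered libraries shared a culture or batch. With the replicate block, 16, 15 and 13 chaperone genes were lower in dTAG FL-NPM1c, dTAG C-body null and dTAG mCherry than in NTC DMSO. All genes called lower in that fit were 10.7%, 10.4% and 7.65% in the same order. In dTAG FL-NPM1c against dTAG mCherry 3 chaperone genes were higher and 1 lower, when 4.88% of all genes were called higher and 5.59% lower. Every library holds at least 30519165 counts, so depth limits mainly the members with the fewest counts, DNAJB4, BAG2, HSF2 and BAG3.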
